A study of Mus musculus with 2 samples.

Results

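The Ccl17/Mgl2/Ptx3-high cells were 62 of the 1817 kept cells of the library without coculture, a share of 3.41% (exact binomial 95% interval 2.63 to 4.35%). Kept barcodes have 500 genes or more and no more than 10% of their UMIs (unique molecular identifiers, each marking 1 captured transcript) from mitochondrial genes. The cells were chosen by measured values. A kept barcode counted as Ccl17/Mgl2/Ptx3-high if Ccl17, Mgl2 and Ptx3 together made up at least 0.1% of its UMIs, unless Ctss reached 0.15% and Lyz2 1% of them. The levels of these 5 genes in the chosen cells follow from the rule, so they are described below and support nothing. The cells had been proposed as dendritic-like. Their marker genes, given below, were mixed, so they are called by their genes.

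The series holds 2 libraries of mouse bone marrow culture cells (strain C57BL/6NCrljOri, haplotype H-2b), 1 library per group, made to describe the myeloid cells that arise when marrow is cultured beside human mesenchymal stromal cells (MSC). Femur marrow of both groups received GM-CSF, a growth factor of granulocytes and macrophages, at 40 ng/mL over 5 days. The library without coculture holds CD11b-high Ly6C-high cells, sorted as the other library was with a viability dye. The other library holds CD11b-mid Ly6C-mid cells grown beside human MSC, which sat in culture inserts with 0.4 µm pores at 1 MSC to 5 marrow cells after 24 h of incubation on their own. The base media named are RPMI1640 for marrow culture and DMEM for coculture, so the sort gate, the MSC, the medium and the library cannot be told apart. The files held 28294186 UMIs over 2180 barcodes without coculture and 29217182 UMIs over 3134 barcodes with it. Of these barcodes 4 sequences occurred in both libraries, and 0 of the 62 cells carried one. With 1 library per group nothing here has a replicate check, no test was run, and every interval covers counting error only.

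The 3 genes of the rule encode proteins through which myeloid cells signal to T cells, bind sugars and bind microbes. Ccl17 is a chemokine that attracts T cells bearing the receptor CCR4, and dendritic cells and macrophages make it, more so under GM-CSF or interleukin-4. Mgl2 (CD301b) is a surface lectin that binds galactose-type sugars and is known from dermal dendritic cells and alternatively activated macrophages. Ptx3 is a secreted pentraxin that binds microbes and complement, and myeloid cells make it after Toll-like receptor, interleukin-1 or tumour necrosis factor signals.

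The promoters of the 3 genes are shown because the genes chose the cells. The windows run from 250 bases before to 50 bases after the start of the RefSeq transcript in GRCm38.p6, the build of the files, and capitals mark motif matches. Ccl17 spans chr8:94810453-94812036 on the plus strand (GENCODE M21), Mgl2 chr11:70130329-70137550 on the plus strand and Ptx3 chr3:66219910-66225805 on the plus strand. The windows printed are chr8:94810203-94810502 for Ccl17, chr11:70130107-70130406 for Mgl2 and chr3:66219637-66219936 for Ptx3, all on the plus strand.
Ccl17: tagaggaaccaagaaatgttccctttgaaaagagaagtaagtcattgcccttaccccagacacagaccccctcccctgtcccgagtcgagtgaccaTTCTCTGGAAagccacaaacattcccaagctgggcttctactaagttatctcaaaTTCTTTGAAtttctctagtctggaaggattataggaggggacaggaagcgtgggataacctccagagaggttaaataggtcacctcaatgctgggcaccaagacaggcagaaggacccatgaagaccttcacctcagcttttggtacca
Mgl2: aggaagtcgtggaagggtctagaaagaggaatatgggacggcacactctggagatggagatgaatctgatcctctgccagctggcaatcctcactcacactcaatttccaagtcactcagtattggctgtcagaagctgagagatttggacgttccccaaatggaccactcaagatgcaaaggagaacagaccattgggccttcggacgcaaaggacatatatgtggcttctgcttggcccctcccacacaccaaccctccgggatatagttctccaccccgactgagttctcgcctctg
Ptx3: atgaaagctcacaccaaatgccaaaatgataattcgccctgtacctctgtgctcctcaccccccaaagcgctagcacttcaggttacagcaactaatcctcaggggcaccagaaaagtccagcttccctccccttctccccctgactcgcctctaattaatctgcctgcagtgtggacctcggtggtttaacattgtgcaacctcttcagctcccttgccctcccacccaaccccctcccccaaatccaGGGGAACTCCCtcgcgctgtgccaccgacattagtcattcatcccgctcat
Both strands were searched for 5 motifs. These were TTCNNNNGAA (the spacing known for STAT6, the factor activated by interleukin-4), TTCNNNGAA (the spacing of other STAT factors), TGANTCA (AP-1), TATAAA (the TATA box) and the NF-kB motif. The Ccl17 window held TTCTCTGGAA from position -154 and TTCTTTGAA from position -99, counted from the start site with no position 0. The Ptx3 window held 2 overlapping NF-kB matches, from position -1 on the plus strand and from position 1 on the minus strand. None of the 5 motifs matched in the Mgl2 window. Over 32851 RefSeq windows of this length, 6.95% held TTCNNNNGAA, 8.30% held TTCNNNGAA, 4.51% the NF-kB motif, 7.81% TGANTCA and 13.6% TATAAA. A match is a string of letters and was not shown to be bound.

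Mgl2 brought most of the 62 cells into the group. It had UMIs in 58 cells, against 28 cells for Ccl17 and 26 for Ptx3, and it held most of the rule UMIs in 39 cells, against 17 led by Ccl17 and 6 led by Ptx3. All 3 genes were detected in 19 cells, exactly 2 in 12 and only 1 in 31. Mgl2 alone reached 0.1% in 50 cells, Ccl17 alone in 19 and Ptx3 alone in 7. Without Mgl2 37 cells would have missed the minimum, without Ccl17 6 and without Ptx3 4.

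Per cell, Mgl2 ranged from 0 to 1.17% of UMIs with a median of 0.176%, and its highest single count was 243 UMIs. Ccl17 ranged from 0 to 1.43% with a median of 0, and its highest count was 550 UMIs. Ptx3 ranged from 0 to 0.470% with a median of 0, and its highest count was 115 UMIs. Mgl2 was thus spread over the group, while Ccl17 and Ptx3 lay in fewer cells, with 35.8% of the Ccl17 and 44.7% of the Ptx3 UMIs in 3 cells each, against 15.2% for Mgl2. The 62 cells held 76.7% of all Ccl17 UMIs of the kept cells, 68.4% of the Ptx3 and 39.0% of the Mgl2 UMIs, while 53.6% of the Mgl2 UMIs lay in cells that passed the Lyz2/Ctss clause.

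**Figure D1:**
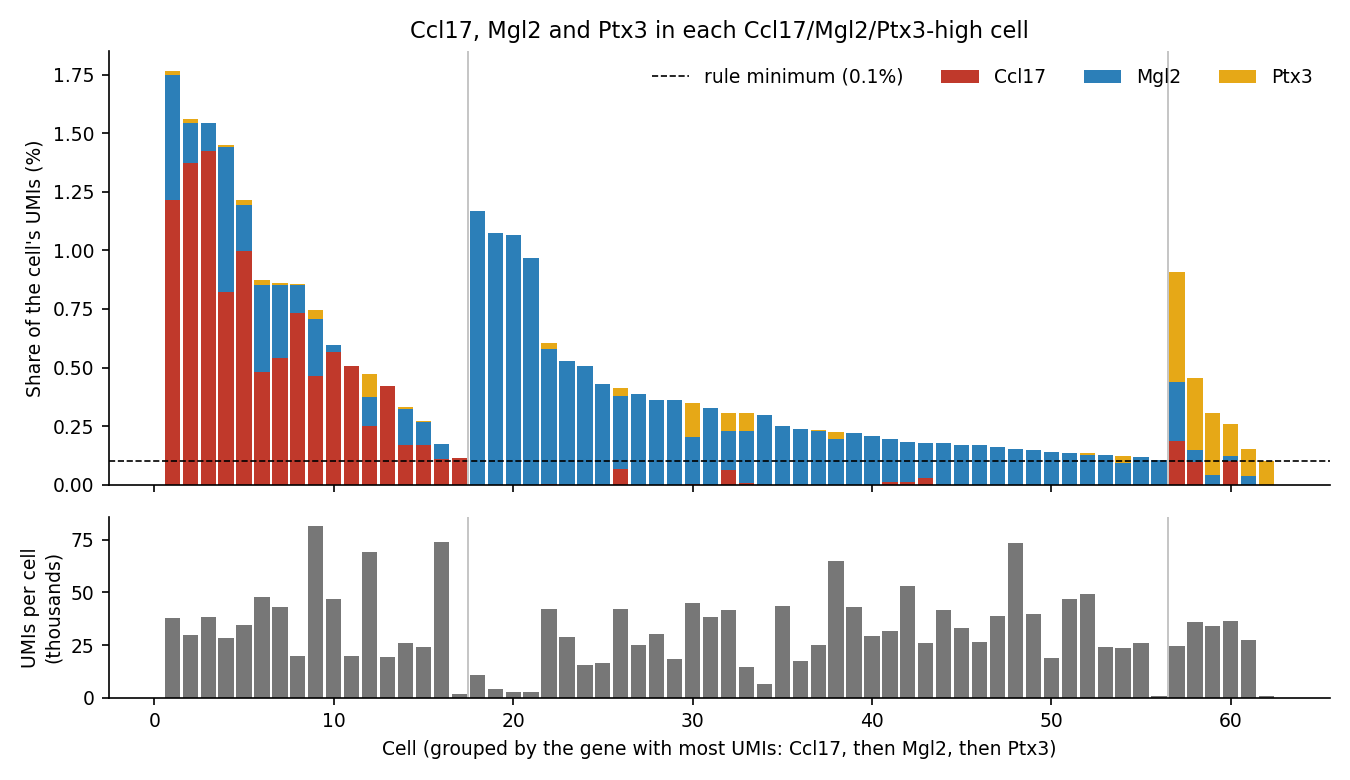
Ccl17, Mgl2 and Ptx3 as a share of UMIs (%, upper panel) and the UMIs per cell (lower panel) in each of the 62 Ccl17/Mgl2/Ptx3-high cells, in blocks by the gene with most UMIs. The dashed line is the rule minimum of 0.1%, and 39 of the 62 bars are led by Mgl2.

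The minimum cut through a continuous range. The 3 lowest summed shares inside it were 0.102, 0.104 and 0.116%, and the 2 highest outside it were 0.0972 and 0.0968%. The median was 0.307%, from a median of 90 UMIs of the 3 genes, and the highest share was 1.76%. A further 107 kept cells lay between 0.05 and 0.1%, of which 30 did not meet the Lyz2/Ctss clause. In 3 shallow cells (957, 981 and 1723 UMIs) membership rested on 1 or 2 UMIs of the 3 genes.

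The Lyz2/Ctss clause set aside 45 cells that passed the first part of the rule. Lyz2, which encodes lysozyme, had a median share of 0.461% in the 62 cells and 3.78% in the 45 set-aside cells. Ctss, which encodes the lysosomal protease cathepsin S, had medians of 0.0486% and 0.399% in the same sets. The clause needs both genes, so 19 of the 62 cells had at least 1% Lyz2 and 1 had at least 0.15% Ctss. The edge was close, since the highest Ctss share among cells with 1% Lyz2 was 0.143% inside the group and the lowest among set-aside cells was 0.151%.

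The 62 cells were deep. Their median was 29342.5 UMIs (957 to 81692) and 4968.5 genes, against 6606 UMIs in the other 1755 kept cells, 24316 in the 521 Lyz2/Ctss-high cells (those at or above both clause values) and 5581 in the 717 S100a8/S100a9-high cells. The S100a8/S100a9-high cells have these neutrophil calprotectin genes at 1% of UMIs or more. They are 717 of the 853 kept cells at that level, since the 9 of the 62 cells and the 127 Lyz2/Ctss-high cells that also reach it were kept out of the set. The 62 cells, 3.41% of the kept cells, held 7.07% of the kept UMIs, and 5 of the 62 were among the 5% of kept cells with most UMIs. Their median mitochondrial share was 2.24%. Scrublet called 0 of the 1817 kept barcodes a doublet, so doublets were essentially not removed. The part of mixed droplets in any result was not tested.

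To compare shares of cells at 1 depth, each cell was thinned to 5000 UMIs, which left 56 of the 62 cells. Ccl17 then had a UMI in 42.9% of them (exact 95% interval 29.7 to 56.8%), against 3.21% of 499 Lyz2/Ctss-high cells and 0.247% of 405 S100a8/S100a9-high cells. Ptx3 had a UMI in 28.6%, against 2.81% and 0.247% of those sets. Mgl2 had a UMI in 94.6%, against 59.9% and 3.95%. The S100a8/S100a9-high cells are given as a background level, and whether their UMIs of the 3 genes came from free RNA was not tested. The unthinned shares of Ccl17, Mgl2 and Ptx3 in the 62 cells were 45.2, 93.5 and 41.9%.

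The name dendritic cell was checked against 4 marker lists. Of 14 markers of type 2 conventional dendritic cells, 5 reached 20 CPM (counts scaled to a common total) and stood 2-fold or more above the other kept cells, namely Clec10a, H2-DMb2, Itgax, Mgl2 and Tnip3. Flt3, the receptor that dendritic cell precursors depend on, had 0 UMIs in the 62 cells. Zbtb46, a transcription factor of conventional dendritic cells, had 5 UMIs in 5 cells, and Cd209a, a lectin of monocyte-derived and type 2 dendritic cells, 28 UMIs in 5 cells. Itgax, which encodes CD11c, stood at 186 CPM in the 62 cells and 80.0 CPM in the other kept cells. Of 10 type 1 dendritic cell markers 4 were at 20 CPM and 1 passed, Batf3 (49.4 and 15.1 CPM), a factor those cells need, while Xcr1, Clec9a, Cadm1, Snx22 and Tlr3 had 0 UMIs. Of 12 mature dendritic cell markers 6 passed, and 0 were among the 10 leading genes. Those 10 genes held 1 dendritic cell marker (Mgl2, a rule gene) and 1 macrophage marker (Plet1). Of 8 plasmacytoid dendritic cell markers 1 passed, Cox6a2. Of 16 macrophage markers 13 were at 20 CPM and 2 passed, Lpl and Plet1. Among those that did not pass, Csf1r, the M-CSF receptor, stood at 261 CPM in the 62 cells and 278 CPM in the others. Adgre1, which encodes F4/80, stood at 81.0 and 137 CPM. The count set for a name was 3 passing markers and no more leading markers of another type. The type 2 list met it, with the rule gene Mgl2 among its 5 passing markers and as its only leading one. Without Mgl2, which chose the cells, the leading genes held a macrophage marker only, so no name was given.

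Of the genes behind the sort gate, Ly6c2 was lower than in the other kept cells and Itgam less than 2-fold lower. Ly6c2 stood at 92.2 CPM in the 62 cells and 363 CPM in the other kept cells, which is -1.98 as a log2 ratio (exact conditional 95% interval -2.20 to -1.77). Itgam, which encodes CD11b, stood at 211 and 362 CPM (log2 ratio -0.77, interval -0.92 to -0.63). Both sets passed the same CD11b-high Ly6C-high gate, which reads protein and not RNA.

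Within the 62 cells, MHC class II genes split the group. The class II chains present peptides to CD4 T cells, and H2-Aa, H2-Ab1 and H2-Eb1 together made up at least 0.1% of UMIs in 12 cells, with a median of 1.40% and a highest share of 2.03%. In the other 50 cells the median was 0 and the highest share 0.0541%, and 2 of the 62 cells lay between 0.05 and 0.2%. This minimum was chosen after the values were seen, and the split is a description. The 12 cells held 98.9% of the H2-Aa, 96.3% of the H2-Ab1, 99.1% of the H2-Eb1 and 92.6% of the Ciita UMIs of the group, where Ciita is the regulator that turns class II genes on. They held 68.8% of the UMIs of Cd74, the invariant chain. Of the 12 cells 11 were led by Ccl17 and 1 by Mgl2.

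The 12 MHC class II cells were led by Il4i1, Ccl22, Nr4a3, Ccl5 and Ccl17. Against the other 1755 kept cells, 491 of 6331 measured genes (7.76%) were higher and 1075 (17%) lower, where a gene counts as measured at 20 CPM in either set and as higher or lower from a 2-fold difference on. The 3 chains picked these 12 cells, so their high levels follow from the split. They stood at 4259 CPM and 219.8 CPM for H2-Aa, 3781 and 199 CPM for H2-Ab1, and 2667 and 97.5 CPM for H2-Eb1. Of 13 measured genes of the class II presentation list, which counts the chains, 11 were higher and 2 lower, Ctss and Lgmn. Among the higher ones outside the chains was H2-DMb2 (426 and 17.2 CPM), which helps to load peptide. Of 11 measured mature dendritic cell markers 10 were higher. Il4i1, an amino acid oxidase of activated antigen-presenting cells, stood at 285 CPM in the 12 cells and 0.775 CPM in the others, with UMIs in 6 of the 12. The NF-kB list had 9 of 15 genes higher, among them Relb (86.4 and 13.7 CPM) and Traf1 (74.9 and 9.14 CPM).

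Few cells carried the most mature pattern. Ccl22, a second CCR4 ligand whose gene lies 58753 bases from Ccl17, and Ccl5 had all of their UMIs among the 12 cells in 3 of them. The lymph node homing receptor gene Ccr7 had 57 UMIs in 2 cells, 34 in one (19214 UMIs in all) and 23 in the other (19706 UMIs). Those cells had 81 and 100 Ccl17, 32 and 43 Ccl22 and 0 Mgl2 UMIs. The 12 cells met the count for a name as mature dendritic cells, with 10 markers passing and 3 among their 10 leading genes. With the mature markers in so few cells, no type name was given to the 12 cells either.

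Inflammatory genes were low in the 12 MHC class II cells. Chemokine genes had 3 higher (Ccl22, Ccl5 and the rule gene Ccl17) and 8 lower of 12 measured. Ccl3 stood at 49.0 CPM in the 12 cells and 571 CPM in the other kept cells. Inflammatory cytokine genes had 0 higher and 5 lower of 11, and Csf1 had 0 UMIs in the 12 cells. Spp1, which encodes osteopontin, stood at 196 and 710.1 CPM. The lysosome list had 15 of 24 and the matrix list 12 of 13 genes lower.

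Summed over cells, the other 50 cells had high levels of inflammatory genes and little class II, but few cells held much of the inflammatory signal. Against the other kept cells, 318 of 6088 measured genes (5.22%) were higher and 584 (9.59%) lower. Of 10 measured class II presentation genes 0 were higher and 5 lower, with H2-Aa at 9.90 CPM in the 50 cells and 219.8 CPM in the other kept cells. The 50 cells were split off by low H2-Aa, H2-Ab1 and H2-Eb1, so the low levels of these chains follow from the split. Chemokine genes had 6 higher of 12, the rule gene Ccl17 among them, and inflammatory cytokine genes 6 higher of 12. Spp1 stood at 8380.5 CPM and 710.1 CPM, Ccl4 at 4758 and 328 CPM, and Tnf at 426 and 38.3 CPM. In the 50 cells, 3 cells each held 64.8% of the Tnf, 72.3% of the Lta, 78.1% of the Serpinb2, 41.3% of the Ccl4 and 36.4% of the Spp1 UMIs. A UMI was found in 80% of the 50 cells for Spp1, 70% for Ccl4, 50% for Tnf and 36% for Il1b. Ccl4 was at 124 CPM in the 12 MHC class II cells. The 10 leading genes of the 50 were Ptx3, Lta, Ccl4, Serpinb2, Pdgfa, Spp1, Tnf, Ccl17, Mgl2 and Il1b.

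**Figure D2:**
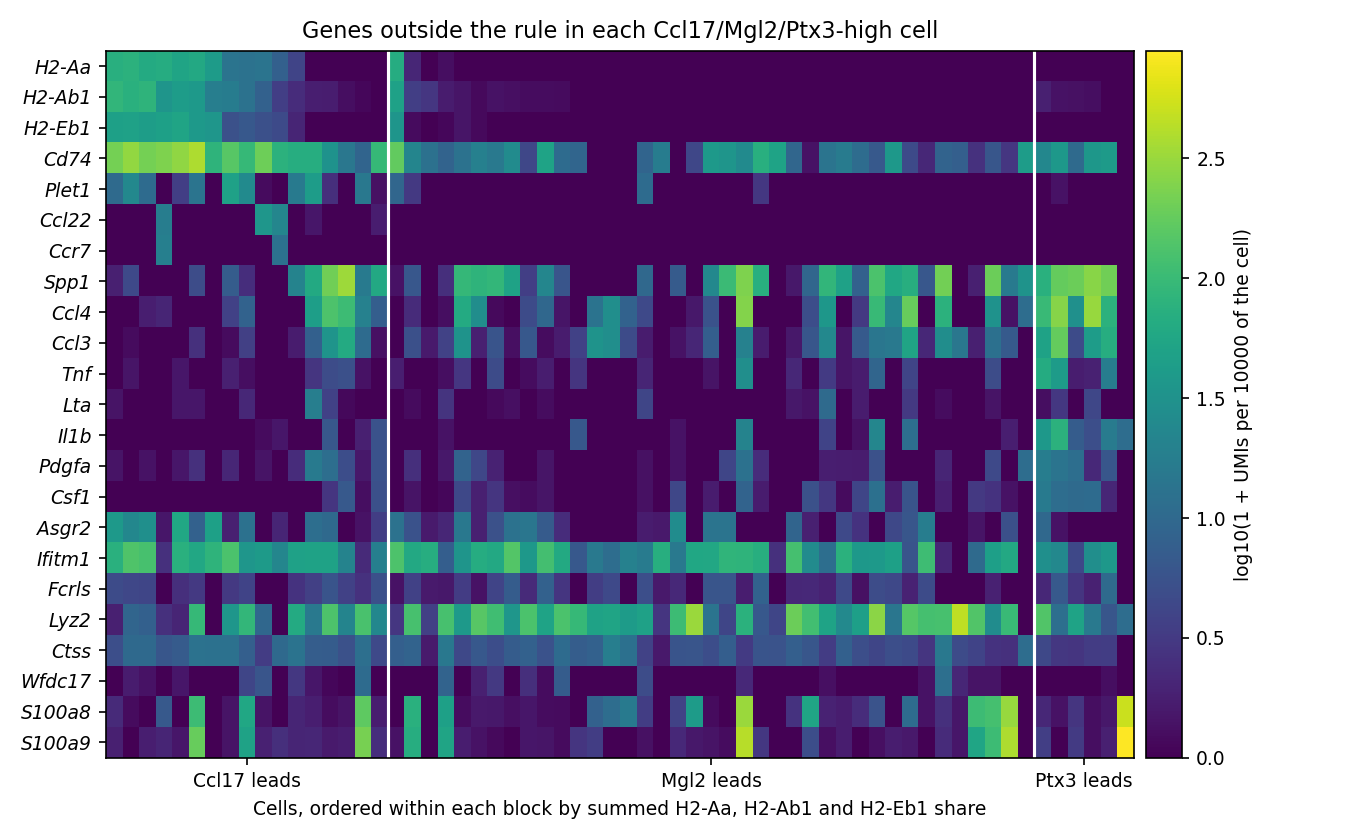
UMIs per 10000 of each cell, as log10(1 + value), for genes outside the first part of the rule (rows) in the 62 cells (columns), in blocks by leading gene and ordered by H2-Aa, H2-Ab1 and H2-Eb1 within a block. The class II genes fill the left of the Ccl17 block (11 of its 17 cells), where Spp1, Ccl4 and Tnf are mostly low.

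**Figure D3:**
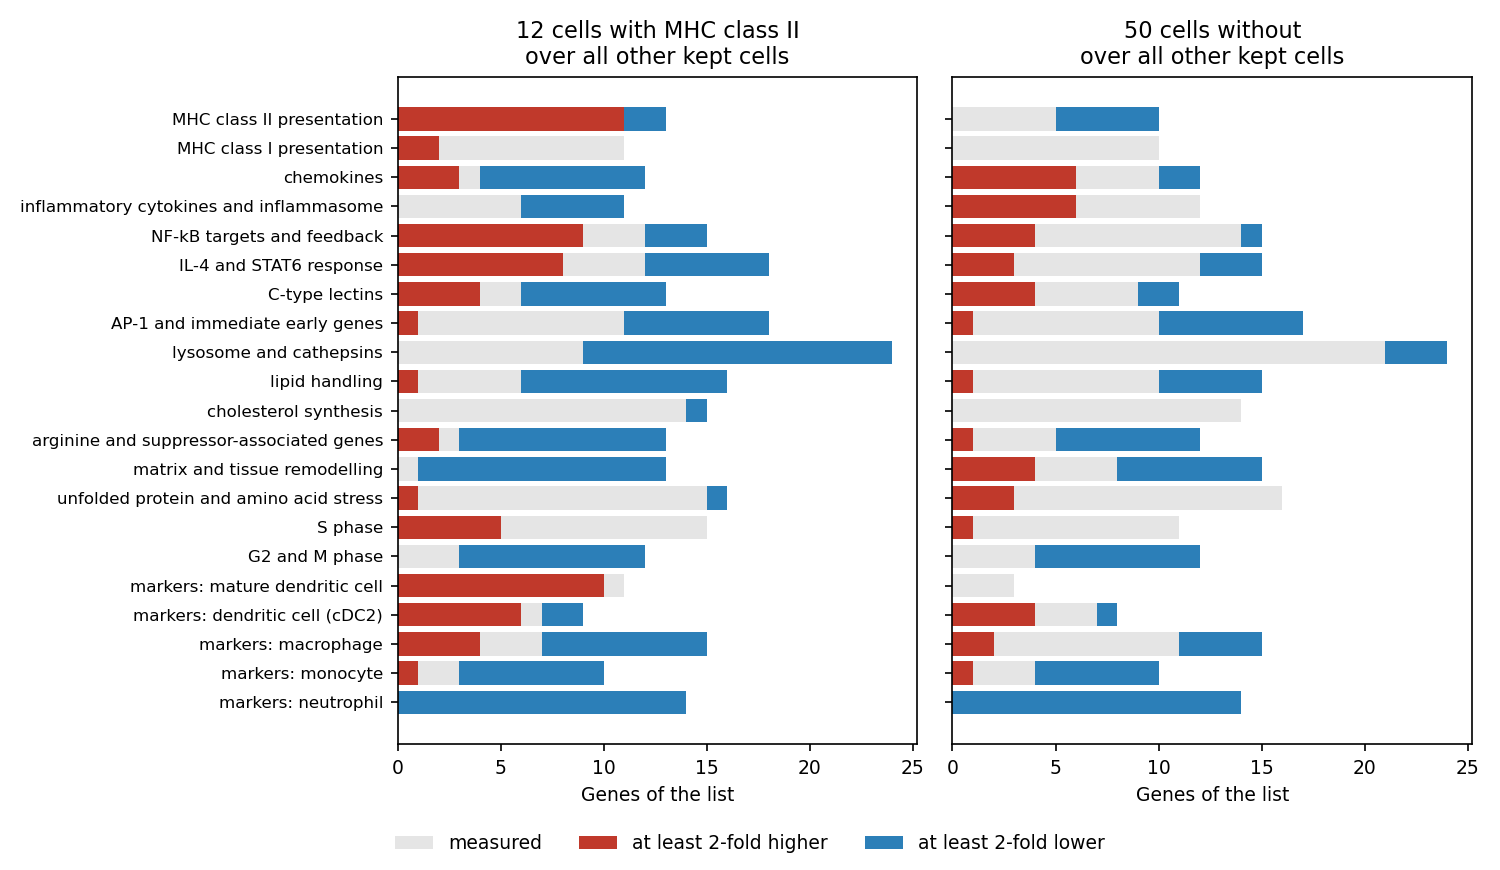
Genes of 21 lists higher (red) or lower (blue) by 2-fold or more among those measured (grey), for the 12 cells with MHC class II (left) and the 50 without (right), each against the other 1755 kept cells. The class II list has 11 of 13 genes higher on the left and 0 of 10 on the right, and the inflammatory cytokine list 0 of 11 and 6 of 12. The cells were split on H2-Aa, H2-Ab1 and H2-Eb1, so part of the class II contrast follows from the split.

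Ptx3 and Ccl4 tended to lie in the same cells as Spp1 and the cytokine genes. Across the 62 cells, Spearman's rho on shares of UMIs was 0.66 for Ccl4 and Spp1, 0.54 for Ptx3 and Pdgfa, 0.51 for Ptx3 and Spp1, 0.77 for Spp1 and Csf1 and 0.74 for Spp1 and Pdgfa. Ccl17 went with Plet1 (0.67) and H2-Aa (0.60), Asgr2 with Ifitm1 (0.55), and H2-Aa against Spp1 (-0.43) and Csf1 (-0.48). These are descriptions over cells of 1 library that also share depth differences. In the 26 cells with a Ptx3 UMI, Ccl4 stood at 6565 CPM, against 1479 CPM in the 36 without. Tnf stood at 656 CPM in the 26 cells and 74.0 CPM in the 36, Il1b at 599 and 122 CPM, Lta at 185 and 37.5 CPM, and Pdgfa at 477 and 65.1 CPM. The same 3 cells, each with Ptx3 UMIs, held 63.9% of the Tnf and 58.3% of the Il1b UMIs of the 62 cells. Il1b had a UMI in 10 of the 26 and 10 of the 36 cells. The median depth was 35326 UMIs with and 26375 without a Ptx3 UMI, and its part in these differences was not tested.

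The 6 cells led by Ptx3 carried interleukin-1 and monocyte chemokine genes. Il1a, which encodes interleukin-1 alpha, stood at 1256 CPM in these 6 cells and 24.96 CPM in the 39 cells led by Mgl2. Cxcl2, a neutrophil chemokine gene, stood at 4083 and 157.5 CPM, and Ccl2, whose product attracts monocytes, at 1244 and 43.9 CPM. Inhba, the activin A subunit gene, stood at 446 and 20.7 CPM. Ccl7 had 78 UMIs in the 6 cells and 0 in the 39. From 93.9% (Ccl2) to 100% (Ccl7) of the UMIs of these genes lay in at most 3 of the 6 cells.

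The 17 cells led by Ccl17 differed from the 39 led by Mgl2 in class II and surface genes. H2-Aa stood at 2053 CPM in the Ccl17-led and 152 CPM in the Mgl2-led cells, and H2-Eb1 at 1311 and 79.2 CPM. Plet1, which encodes a membrane-anchored surface protein, stood at 1305 and 54.2 CPM, with UMIs in 76.5% and 10.3% of the cells. Mfge8, a gene of an opsonin for dying cells, stood at 618 and 67.1 CPM. The chitinase-like gene Chil3 was the other way round, at 449 and 2353 CPM, as were the acute-phase gene Saa3 (10.9 and 244 CPM) and Clec4e, the receptor Mincle (17.1 and 108 CPM). Ifitm1 was near equal, at 5213 and 5094 CPM.

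Against all 1755 other kept cells, the 62 cells as a whole had more chemokine, cytokine and class II genes higher than lower, and all measured neutrophil markers lower. In the 50 cells under the class II minimum 0 of 10 class II genes were higher, which follows in part from the split on H2-Aa, H2-Ab1 and H2-Eb1. The summed level of the chemokine list was 14903 CPM in the 62 cells and 13273 CPM in the others. This list counts the rule gene Ccl17, whose own difference, given below, is larger than the gap between the sums. Of 6094 measured genes 310 (5.09%) were higher and 542 (8.89%) lower, with a median log2 ratio of -0.10. Centred on that median, 384 were higher and 441 lower. Of the rule genes, Ccl17 and Ptx3 had the highest log2 ratios and Mgl2 the tenth highest among the named genes. Ccl17 stood at 2019.7 CPM (95% Poisson interval 1957 to 2084) in the 62 cells and 46.6 CPM in the others, Ptx3 at 360.1 and 12.6 CPM, and Mgl2 at 2154 and 256 CPM.

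Genes of secreted proteins were among the highest outside the rule, as were the surface genes Asgr2 and Plet1 described after them. Lta, which encodes lymphotoxin alpha, stood at 109 CPM in the 62 cells and 5.11 CPM in the others, with a log2 ratio of 4.41 (4.10 to 4.74). Its neighbour Tnf, 1157 bases away, stood at 356 and 38.3 CPM (3.22, 3.07 to 3.36). Ccl4, a chemokine that attracts T cells and monocytes, stood at 3938 and 328 CPM (3.58, 3.54 to 3.63), and its neighbour Ccl3, 13228 bases away, at 1439 and 571 CPM (1.33). Spp1 stood at 6933 and 710.1 CPM (3.29, 3.26 to 3.32), and Pdgfa, a growth factor gene for mesenchymal cells, at 264 and 23.5 CPM (3.49). A small number of cells held much of this signal, with 63.9% of the Tnf, 69.6% of the Lta, 41.1% of the Ccl4 and 36.2% of the Spp1 UMIs in 3 cells each. Ccl4 ranged from 0 to 3.07% of UMIs per cell with a median of 0.0167%, and Spp1 from 0 to 3.27% with a median of 0.0783%. The 2 sets overlapped, since single other kept cells reached 4.51% for Ccl4 and 14.4% for Spp1.

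Asgr2, a subunit gene of the asialoglycoprotein receptor best known from the liver, stood at 601 CPM in the 62 cells and 47.8 CPM in the others (3.65, 3.53 to 3.77), with UMIs in 66.1% and 10.0% of the cells. Thinned to 5000 UMIs, the shares with an Asgr2 UMI were 51.8% and 6.27%, and 0.494% in the S100a8/S100a9-high cells. Asgr2 lies 24141 bases from Mgl2 with 0 protein-coding genes between them, while its partner gene Asgr1 had 0 UMIs in both sets. Fcrls, a scavenger receptor-like gene, stood at 239 and 35.1 CPM (2.77), with UMIs in 77.4% and 14.7% of the cells and, after thinning, in 53.6% and 8.42%. Plet1 stood at 459 and 49.3 CPM (3.22), but in 29.0% of the 62 cells, mostly those led by Ccl17. Ifitm1, an interferon-inducible membrane protein gene, stood at 4919 and 983 CPM (2.32), with UMIs in 95.2% and 48.1% of the cells and 17.4% of its UMIs in 3 cells. After thinning the shares with an Ifitm1 UMI were 92.9% and 48.3%, and 64.2% in the S100a8/S100a9-high cells. Its relative Ifitm3 stood at 3478 and 1026 CPM (1.76).

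**Figure D4:**
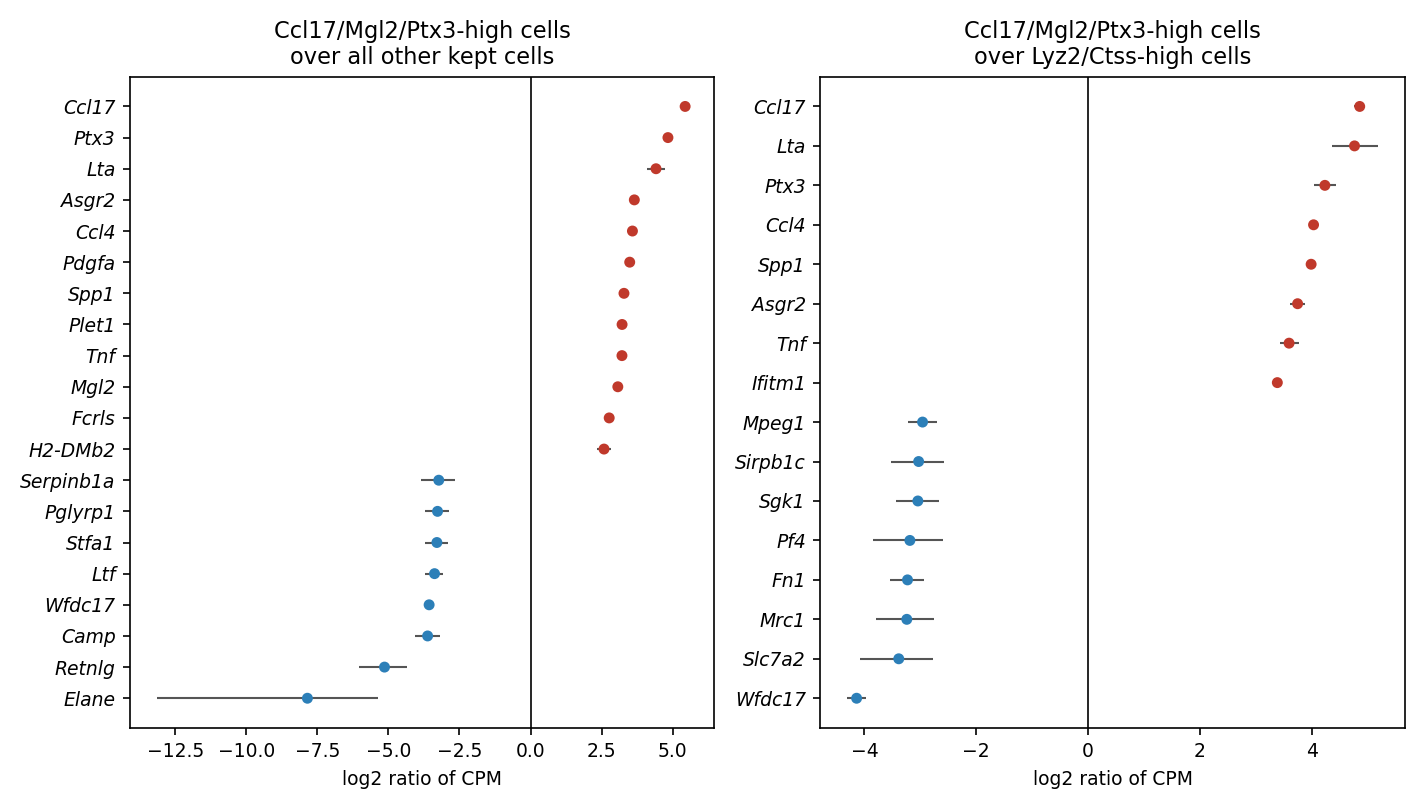
Log2 ratio of CPM of the 62 cells over the other 1755 kept cells (left) and over the 521 Lyz2/Ctss-high cells (right), for the genes the naming rule picked, with exact 95% counting intervals as lines. Outside the rule genes, Lta has the highest ratio in both panels (4.41 and 4.76), and Elane (-7.85, 1 UMI in the 62 cells) and Wfdc17 (-4.14) the lowest.

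The gene lists gave the following counts against the other kept cells. Over all 6094 measured genes of this comparison 5.09% were higher and 8.89% lower. The class II presentation list had 8 of 11 measured genes higher and 1 lower (Ctss, a rule gene), with a median log2 ratio of 1.62 against -0.10 over all genes. Without the 12 MHC class II cells 0 were higher. Chemokine genes had 7 higher of 14, namely Ccl17 (a rule gene), Ccl22, Cxcl10, Ccl4, Ccl5, Ccl7 and Ccl3, and 1 lower, Pf4. Of these Ccl5, Ccl7 and Cxcl10 had all of their UMIs in at most 3 cells. Inflammatory cytokine genes had 5 higher and 0 lower of 12. Besides Tnf these were Il1a (117 and 8.09 CPM, 86.0% of it in 3 cells), Il1b (353 and 61.3 CPM), the macrophage growth factor gene Csf1 (201 and 36.8 CPM) and the interleukin-1 antagonist gene Il1rn (252 and 112 CPM). The NF-kB list had 8 higher of 16 and 1 lower, with the survival gene Bcl2a1d at 468 and 141 CPM and the adhesion gene Icam1 at 110.0 and 39.5 CPM. Only 4 were higher when each cell weighed the same, and 4 without the 12 MHC class II cells. Bcl2a1d has near-identical copies that could share reads.

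Genes tied to the culture cytokine and to interleukin-4 were mixed, where 5.09% of all measured genes were higher and 8.89% lower. The list of GM-CSF and other cytokine receptors had 2 higher and 6 lower of 19, the higher ones being the GM-CSF receptor beta chain gene Csf2rb (1324 CPM in the 62 cells and 579.6 CPM in the others) and its close copy Csf2rb2 (223 and 98.5 CPM). Reads of that pair could be shared. The interleukin-4 and STAT6 list had 5 higher and 3 lower of 17, and Arg1, the arginase gene that interleukin-4 induces in macrophages, had 0 UMIs in the 62 cells. The C-type lectin list had 3 higher, Asgr2, Mgl2 (a rule gene) and Clec10a (84.6 and 40.3 CPM), and 2 lower of 11. Clec10a lies 18646 bases from Mgl2 and resembles it, so their reads could be shared. Costimulation genes had 3 higher and 2 lower of 7, with Tnfsf4, which encodes OX40 ligand, at 20.9 and 0.968 CPM and Cd86 at 46.4 and 14.5 CPM, while Cd274, which encodes PD-L1, stood at 30.1 and 87.0 CPM.

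Transcription factor genes had 3 higher and 5 lower of 18, where 5.09% of all measured genes were higher and 8.89% lower. The higher ones were Batf3 (49.4 CPM in the 62 cells and 15.1 CPM in the others), Runx3 (79.0 and 27.9 CPM) and Relb (35.7 and 13.7 CPM). Cebpb, Nfil3, Klf4 and Cebpe were among the lower ones, with Cebpb, a factor of monocytes and granulocytes, at 679 and 1489.5 CPM. Irf4, a factor that type 2 dendritic cells need, stood at 58.1 and 29.9 CPM, just under 2-fold. Of 16 genes of the stress list 3 were higher, all known targets of the amino acid response: Asns (154 and 33.3 CPM, in 77.4% and 19.8% of the cells and, after thinning, in 37.5% and 11.3%), Chac1 (23.9 and 4.38 CPM) and Trib3 (48.4 and 19.9 CPM).

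Granulocyte genes were lower. All 14 measured neutrophil markers were lower, with S100a9 at 3327 CPM in the 62 cells and 24623 CPM in the others and summed markers at 7210.4 and 50485 CPM. When cells with 1% S100a8 plus S100a9 were left out of both sets, 8 were lower. Elane, the neutrophil elastase gene, had 1 UMI in the 62 cells (log2 ratio -7.85, -13.15 to -5.37), and Retnlg stood at 6.62 and 233 CPM (-5.14). Camp, Ltf, Pglyrp1 and Serpinb1a, genes of granule proteins and a protease inhibitor of neutrophils, had log2 ratios of -3.62, -3.38, -3.27 and -3.23. Stfa1 (-3.29) belongs to a family of near-identical copies. Without cells at 1% S100a8 plus S100a9, Stfa1 (-0.97) and Serpinb1a (-0.83) were less than 2-fold lower. Dividing cell genes of the G2 and M phase list had 0 higher and 8 lower of 12, but 3 when each cell weighed the same. Monocyte markers had 5 lower and 1 higher of 10, with Ccr2 at 112 and 278 CPM and F13a1 at 94.2 and 34.6 CPM.

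The 521 Lyz2/Ctss-high cells were close in depth, and the clause on Lyz2 and Ctss kept them apart. Against them 300 of 6203 measured genes (4.84%) were higher in the 62 cells and 675 (10.9%) lower, with a median log2 ratio of -0.17. Centred on that median, 445 were higher and 480 lower. Because the clause chose the sets, genes that go with Lyz2 and Ctss were bound to differ. Ccl17 (log2 ratio 4.86) and Ptx3 (4.23) were again among the 8 highest of the named genes, and Mgl2 (2154 and 359 CPM, 2.59) was not. The other 6 were Lta (109 and 4.01 CPM, 4.76), Ccl4 (3938 and 241 CPM, 4.03), Spp1 (6933 and 437 CPM, 3.99), Asgr2 (601 and 44.7 CPM, 3.75), Tnf (356 and 29.4 CPM, 3.59) and Ifitm1 (4919 and 471 CPM, 3.38). Asns stood at 154 and 18.3 CPM (3.07).

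Macrophage genes were lower than in the Lyz2/Ctss-high cells. Wfdc17, a small secreted protein gene of activated macrophages, stood at 148 CPM in the 62 cells and 2611 CPM in the Lyz2/Ctss-high cells (-4.14, -4.31 to -3.97), with UMIs in 38.7% and 99.0% of the cells and, after thinning, in 19.6% and 98.0%. The mannose receptor gene Mrc1 stood at 16.8 and 159 CPM (-3.24), with UMIs in 11.3% and 89.4% of the cells and, after thinning, in 1.79% and 55.5%. Fn1 (fibronectin, -3.23), the cationic amino acid transporter gene Slc7a2 (-3.38), Pf4 (-3.19), the kinase gene Sgk1 (-3.04) and the pore-forming protein gene Mpeg1 (63.7 and 495 CPM, -2.96) followed, and Sirpb1c (-3.03) has near copies. Of 16 macrophage markers 7 were lower and 1 higher (Plet1). Lysosome genes had 8 lower and 0 higher of 24, and lipid genes 9 lower and 0 higher of 16, with Fabp5 at 288 and 1362 CPM and Fabp4 at 0 UMIs in the 62 cells. The class II list had 6 higher of 11. H2-Aa stood at 762 and 297 CPM, although after thinning fewer of the 62 cells had an H2-Aa UMI (21.4%, against 34.5% of the Lyz2/Ctss-high cells).

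The 45 set-aside cells passed the same minimum on Ccl17, Mgl2 and Ptx3, so within the rule only the clause split them from the 62. Genes that go with Lyz2 and Ctss were again bound to differ. In this comparison 227 of 6066 measured genes (3.74%) were higher in the 62 cells and 470 (7.75%) lower. Tnf stood at 356 CPM in the 62 cells and 27.3 CPM in the 45 (3.70, 3.25 to 4.19), Spp1 at 6933 and 598 CPM (3.54), Ccl4 at 3938 and 350.2 CPM (3.49), Il1b at 353 and 39.7 CPM (3.15), Csf1 at 201 and 29.9 CPM (2.74) and Asgr2 at 601 and 107 CPM (2.49). Pf4 (11.7 and 158 CPM, -3.75), Wfdc17 (148 and 1708 CPM, -3.53) and Mrc1 (16.8 and 172.5 CPM, -3.36) were lower, and so were 11 of 16 macrophage markers, with 0 higher. Per cell, Mgl2 had a median share of 0.176% in the 62 cells and 0.134% in the 45, and both sets overlapped widely.

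**Figure D5:**
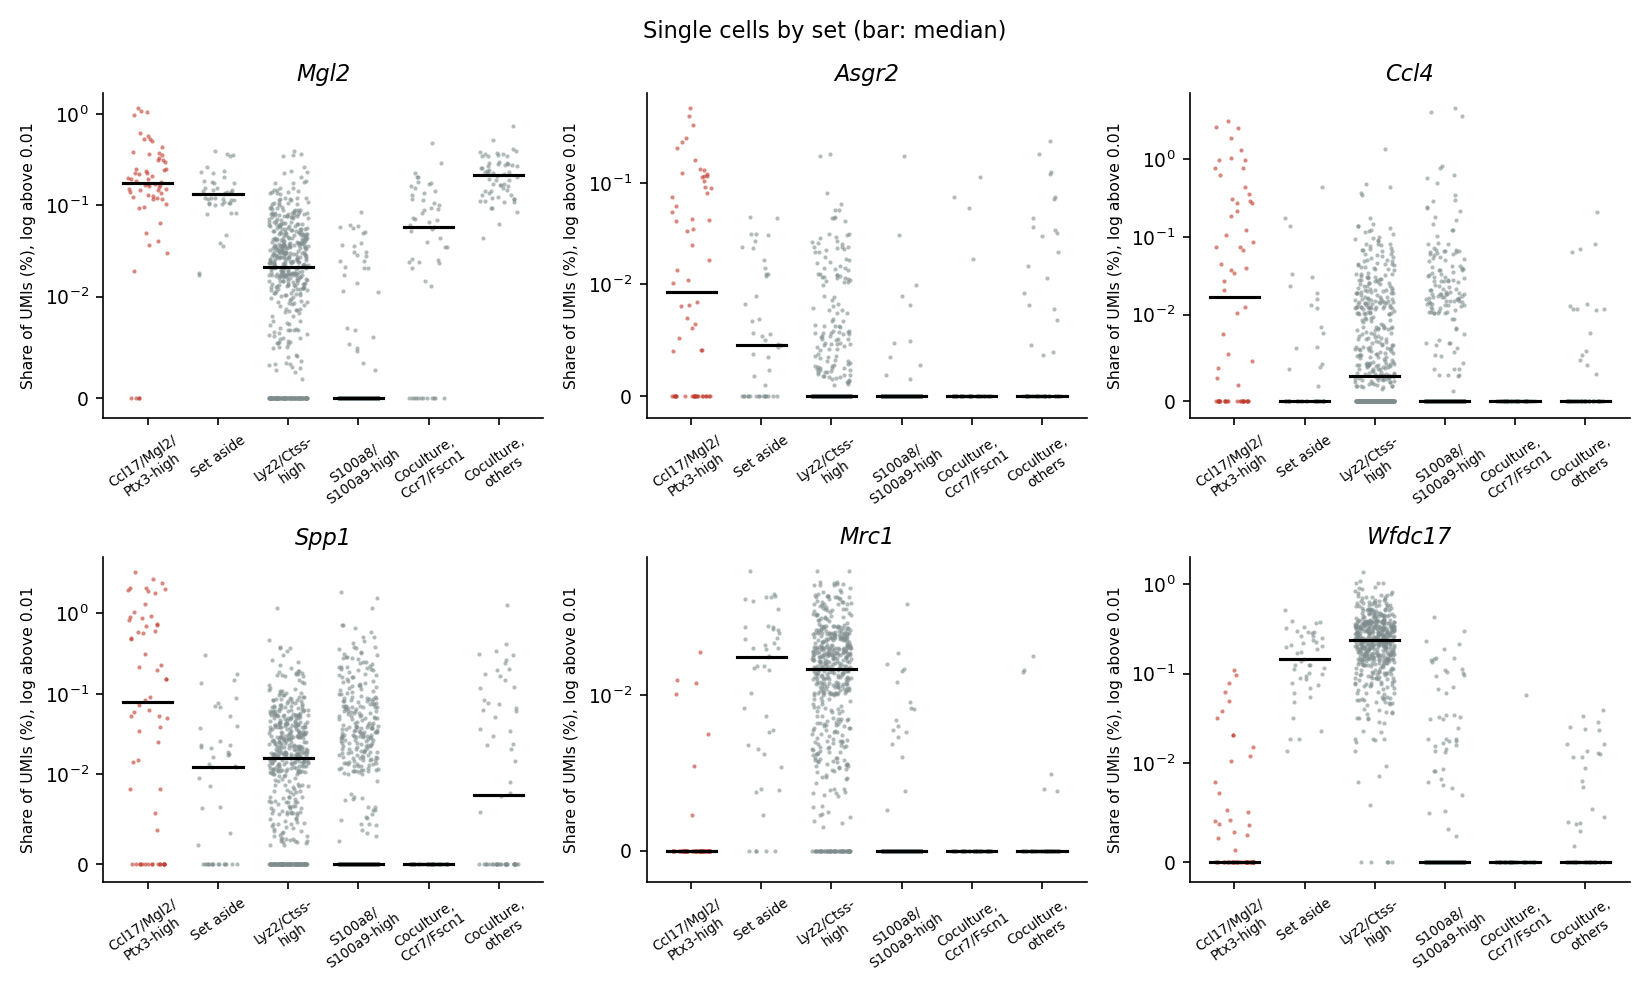
Share of UMIs per cell (%, linear below 0.01 and log above) of Mgl2, Asgr2, Ccl4, Spp1, Mrc1 and Wfdc17 in the 62 cells (red), the 45 set-aside, the Lyz2/Ctss-high and the S100a8/S100a9-high cells without coculture, and the 53 and 60 coculture cells of the same rule, with black bars at the medians. Mrc1 has a UMI in 11.3% of the 62 cells and in 89.4% of the Lyz2/Ctss-high cells, which include the 45 set-aside cells.

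The same rule took 113 of 3005 kept cells (3.76%) of the coculture library. Of these 53 had Ccr7 plus Fscn1, genes of migrating mature dendritic cells, at 0.05% of UMIs or more, against 2 of the 62 cells without coculture. The coculture cells were shallower, with medians of 7629 UMIs in the 53 and 13822.5 UMIs in the other 60. All differences to them are between 2 libraries that differ in gate, MSC and medium.

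Against the 53 coculture cells with Ccr7 and Fscn1, 1537 of 6388 measured genes (24.1%) were higher in the 62 cells and 1282 (20.1%) lower. Spp1, Ccl4 and Ccl3 had 0 UMIs in the 53 cells, which against a floor of 3 UMIs puts them at least 9.83, 9.01 and 7.56 higher on the log2 scale in the 62 cells. Lyz2 stood at 7605 CPM in the 62 cells and 15.3 CPM (6 UMIs) in the 53, and Chil3 had 1 UMI in the 53 (log2 ratio 9.30, 6.82 to 14.61). S100a9 stood at 3327 and 22.9 CPM, with 67.4% of its UMIs in the 62 cells held by 3 of them. All 12 mature dendritic cell markers were lower in the 62 cells, with Ccr7 at 29.0 and 2211 CPM, Il4i1 at 53.5 and 1661 CPM and Ccl5 at 26.0 and 1621 CPM. Class II genes had 9 lower and 1 higher of 13, with H2-Aa at 762 and 6841 CPM. Zmynd15 (2.55 and 679 CPM) was also among the lowest, as were Clu with 2 UMIs (-8.05, -11.11 to -6.16), Pdlim4 with 1 (-8.08, -13.40 to -5.54), Tnfrsf4 with 1 (-7.96, -13.30 to -5.42) and Serpinb6b with 3 (-7.75, -10.04 to -6.17) in the 62 cells, and Ceacam15 with 0 there. Ccl17 itself, a rule gene, stood at 2019.7 and 1613 CPM and Mgl2 at 2154 and 761 CPM.

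The other 60 coculture cells were closer to the 62 cells. Of 6160 measured genes 509 (8.26%) were higher in the 62 cells and 740 (12%) lower. Mgl2 was near equal, at 2154 CPM in the 62 cells and 2132 CPM in the 60. Ccl4 stood at 3938 and 183 CPM (log2 ratio 4.43, 4.21 to 4.65), Tnf at 356 and 26.3 CPM, Ccl3 at 1439 and 104 CPM, and the lipoprotein lipase gene Lpl at 1896 and 63.8 CPM (4.89, 4.53 to 5.28). Gpnmb stood at 424 and 17.2 CPM (4.62), the serine synthesis gene Phgdh at 223 and 9.11 CPM (4.61) and Asns at 154 and 11.1 CPM (3.79). Lta had 1 UMI in the 60 cells (6.75, 4.26 to 12.06) and Saa3 3 (5.68, 4.12 to 7.96).

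Class II, complement and platelet chemokine genes were lower in the 62 cells than in those 60. Class II presentation genes had 10 lower and 0 higher of 13, with H2-Aa at 762 and 3378 CPM. The complement subunit gene C1qa stood at 88.6 and 1988 CPM and C1qb at 235 and 2028.5 CPM. Pf4, a platelet and macrophage chemokine gene, stood at 11.7 and 1625 CPM (-7.12), and the eosinophil chemokine gene Ccl24 and Ppbp had 1 UMI each in the 62 cells (-10.23, -15.54 to -7.75, and -10.02, -15.32 to -7.53). Arg1 had 0 UMIs in the 62 cells and 491 CPM in the 60, at least 8.33 lower on the log2 scale, and Ly6a stood at 5.09 and 729.8 CPM (-7.16). Retnlg stood at 6.62 and 416 CPM (-5.97). Of 19 G2 and M phase genes 18 were lower and 0 higher in the 62 cells.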

How the data were processed

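The authors deposited raw counts of UMIs per gene and barcode as sparse matrices of 47729 genes, not normalized, from 2 droplet libraries of transcript 3' ends. Cell Ranger, bcl2fastq and the build mm10 are named per the submitters' processing notes. A software version of 3.1.0 is recorded, per the file headers, without the tool's name. The annotation release is not given in the sources used here.

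UMIs were summed over the cells of a set and scaled to CPM, with exact Poisson 95% intervals. Ratios carry exact conditional binomial intervals and shares exact (Clopper-Pearson) ones. All cover counting error only, and those for CPM and ratios are too narrow where few cells hold most UMIs. A gene with 0 UMIs in a set took a floor of 3 UMIs over that set. A gene was higher or lower at 2-fold with 20 CPM in either set. With 1 library per group no test was run. Python 3.11.15, numpy 2.4.6, scipy 1.17.1, pandas 2.3.3, scanpy 1.11.5 (Scrublet) and matplotlib 3.10.9 were used, and the counting scripts were tested on simulated data.

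The cells, the 27 gene lists and the 16 marker lists (590 genes, 587 in the files) were chosen with earlier results of these data known. Named genes are the rule genes, Asgr2, Ccl4, the dendritic cell markers, 12 highest and 8 lowest log2 ratios against the other kept cells, 8 and 8 against the Lyz2/Ctss-high cells, 6 and 6 against each coculture set (100 CPM in the set where higher, and for higher genes a UMI in 20% of the cells), and up to 4 genes a list. Other genes named were chosen after their values were seen. Alternatives changed the rule, the CPM minimum, the weight of cells, the centring and the cells left out.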

Additional observations from a re-analysis of the deposited data

Results flagged for a closer look

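Among the 363 barcodes of the library without coculture that the filters left out, 9 (2.48%, exact binomial 95% interval 1.14 to 4.65%) also passed the rule on Ccl17, Mgl2 and Ptx3. The share among the kept cells was 3.41%. They were singled out because they lie outside the cells compared above. All 9 had more than 10% mitochondrial UMIs, their median was 1646 UMIs (615 to 3433), and 2 of them had at least 5 UMIs of the 3 genes.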

How the results depend on the processing

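Without the Lyz2/Ctss clause the rule took 107 cells in place of 62, and with minimums of 0.05% and 0.2% it took 92 and 42. At a minimum of 50 CPM, 177 genes were higher and 267 lower against the other kept cells, 173 and 319 against the Lyz2/Ctss-high cells, 862 and 737 against the coculture cells with Ccr7 and Fscn1, and 276 and 350 against those without. At that minimum the chemokine list had 4 genes higher, the NF-kB list 4 higher and the G2 and M phase list 3 lower. At 10 CPM, 1112 genes were lower against the coculture cells without Ccr7 and Fscn1, and 13 G2 and M phase genes were lower. With every cell weighing the same, 608 genes were higher and 951 lower against the other kept cells, with 4 NF-kB genes higher and 3 G2 and M phase genes lower. Of the 310 higher and 542 lower genes of the main comparison, 264 and 425 were called again. At a rule minimum of 0.2%, 5 G2 and M phase genes were lower. Without cells at 1% S100a8 plus S100a9, 8 neutrophil genes were lower. Without the 12 MHC class II cells, an alternative chosen after seeing the data, 0 class II genes and 4 NF-kB genes were higher. For single named genes 516 alternative values were computed. They include the rule genes, whose higher level the rule favours. They also include the alternative without Scrublet-called barcodes, which removed 0 of the compared cells and so could move no value. The named genes were picked for the largest ratios of these same cells, so a reversal was unlikely from the start. Of the 516 values 0 reversed in direction and 145 lay outside the main counting interval. In 3 the difference dropped under 2-fold, which were Stfa1 (-0.97) and Serpinb1a (-0.83) against the other kept cells without the S100a8/S100a9 cells, and H2-DMb2 (0.98) without the 12 MHC class II cells. Other MHC class II minimums and deep cells alone were also tried after seeing the data. The cause of these shifts was not tested, beyond the fewer or more genes that a CPM minimum admits. Depth limits rare genes, since 3 of the 62 cells had fewer than 2000 UMIs. No paired analysis was possible because each group has 1 library and no replicate to leave out.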
